A study of Arabidopsis thaliana with 24 samples.

Results

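The comparison described here is the response of wild-type Arabidopsis thaliana seedlings to the peptide flg22 at 3 h, measured on 3 arrays of flg22-treated and 3 arrays of mock-treated seedlings that carry set numbers 1 to 3 and were paired by that number. These 6 arrays belong to a series of 24 that fall into 8 groups of 3, and all 576 probes of the array were examined. The accession was Col, 10-day-old seedlings stood in fresh liquid MS medium for 48 h before treatment, and the treatment was 1 µM flg22 or water (mock), with total RNA isolated from leaves. Used for comparison were the same treatments of wild type at 30 min and of mpk11 at 3 h, where mpk11 is a line with a T-DNA insertion (SALK049352) in a MAP kinase gene in the Col background. The probe table names a gene for 181 probes, and 395 are unnamed here. None of the 9 leaf and 2 root marker genes listed for the check of the tissue was among the named probes, so the tissue label was not checked.

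The peptide flg22 is a conserved stretch of bacterial flagellin. In Arabidopsis the receptor kinase FLS2 binds it at the cell surface, and the signal runs through calcium influx, an oxidative burst, MAP kinase cascades and calcium-dependent kinases to transcription factors of the WRKY family and others. Among the known later outputs are antimicrobial proteins such as chitinases, cell wall peroxidases and enzymes of indolic secondary metabolism, while growth of seedlings slows.

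Values are the log values the authors deposited for each probe, taken as log2 because the base is not stated, and every change is flg22 less mock in these units. Probes differ in their own brightness, so values were compared only within a probe. Changes were tested with limma with the set number as a block, and a probe passed when its adjusted p was below 0.05. With whole seedling leaves as the sample, a change of a transcript in all cells and a change in the share of the cells that hold it cannot be told apart. Nothing in the labels says that the sets were separate experiments, so the p-values measure only the spread between samples. The SEs, intervals and p-values use a spread pooled over all 24 arrays of the series, not that of the compared arrays alone. The medians of the mock arrays were 3.63, 3.34 and 3.57 in sets 1 to 3 and those of the flg22 arrays 4.06, 4.02 and 4.05, and the mock array of set 2 was the lowest.

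In all, 211 probes rose with flg22, which is 36.6% of those tested, and 46 fell, which is 7.99%. By at least 1 log2 unit 122 rose (21.2%) and 12 fell (2.08%), and by at least 4 units 8 rose and 0 fell. The named probes were called at similar shares, 63 of 181 higher (34.8%) and 12 lower (6.63%), against 148 (37.5%) and 34 (8.61%) of the 395 unnamed ones. The median change over all probes was 0.14, and the median half-width of the 95% intervals was 0.325. On the deposited scale the 3 flg22 values lay above the 3 mock values for 226 probes (39.2%) and below them for 69 (12.0%). All 211 probes that rose did so in each of the 3 sets, and 45 of the 46 that fell did. Across probes, which are not independent replicates, the paired differences of 2 sets had Pearson correlations from 0.935 to 0.957. The median SD of the paired differences over the 3 sets was 0.180.

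How many probes count as lowered depended on the scaling of the arrays, because the array medians were higher with flg22. After centring each array on its median the median change was -0.39, with 132 probes higher and 296 lower, and quantile normalization gave -0.21, with 140 and 211. Centring on 19 housekeeping genes gave a median change of 0.12, with 201 higher and 47 lower. The share of higher calls among all calls was 82.1% as deposited, 30.8% after median centring, 39.9% after quantile normalization and 81.0% after housekeeping centring. No probe called higher on the deposited scale was called lower under any of these, or the reverse. All 132 and 140 probes higher after median centring and quantile normalization were among the 211. All 46 lower probes stayed lower under each of the 3. For median centring these overlaps were largely fixed by the method, because it lowers every change by the same amount. Housekeeping centring moved the median change only from 0.14 to 0.12, so its calls had little room to differ. For median and housekeeping centring the overlaps are therefore no separate check of the calls. Quantile normalization lowered the median change too, from 0.14 to -0.21, so its overlaps are at most a partial check.

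**Figure D1:**
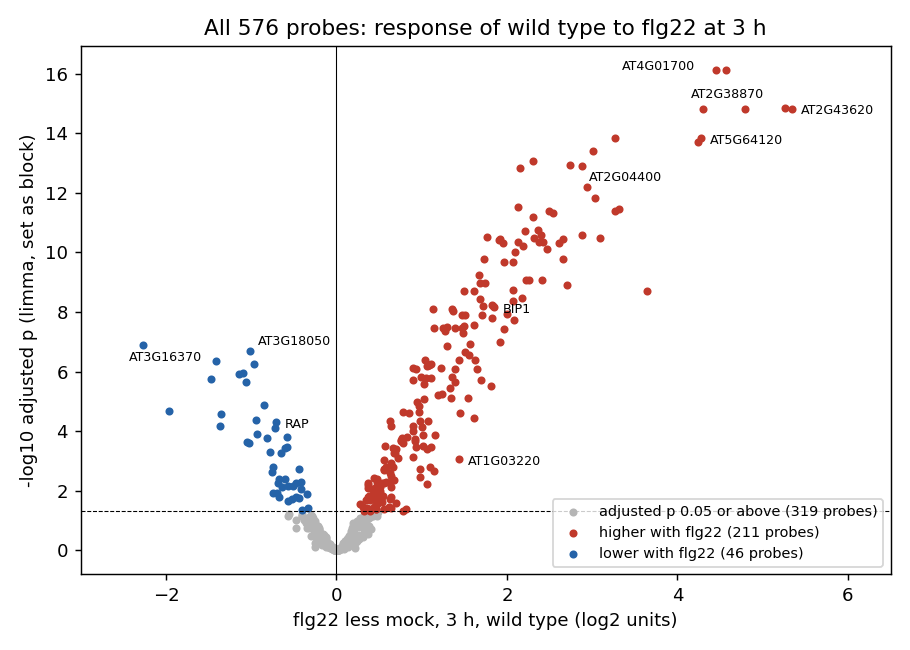
Change of every probe (flg22 less mock at 3 h in wild type, log2 units, x axis) against the negative log10 of the limma adjusted p (y axis), with 1 point per probe and the dashed line at an adjusted p of 0.05. The 211 probes that rose reach 5.35 and the 46 that fell reach -2.26.

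Genes of secreted defence proteins held the largest rises among the named probes. AT2G43620, a chitinase family gene (chitinases cut the chitin of fungal walls), read 3.81, 3.04 and 3.98 on the mock arrays of sets 1 to 3 and 8.87, 9.05 and 8.96 with flg22. All 3 flg22 values lay far above the mock values, and the mock value of set 2 was the low one. The change was 5.35 (SE 0.20, 95% interval 4.94 to 5.75, limma adjusted p = 1.51e-15). AT2G38870, which encodes an inhibitor of serine proteinases of the potato inhibitor I type, went from 4.84, 4.45 and 4.71 to 9.38, 9.55 and 9.47, a rise of 4.80 (SE 0.17). The chitinase gene AT4G01700 had the closest replicates of these, with 2.93, 2.90 and 2.93 in mock against 7.37, 7.45 and 7.29, and rose by 4.45 (SE 0.13, limma adjusted p = 7.54e-17).

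The other members of this group of 6 moved little. CHI (AT2G43570), also a chitinase gene, went from 3.56, 3.35 and 3.43 to 4.12, 4.02 and 4.08, a rise of 0.62 (limma adjusted p = 0.00551), which did not pass after median centring (0.10) or quantile normalization (0.09). PDF1.2, a defensin induced by jasmonate together with ethylene, read 4.73, 4.22 and 5.11 in mock and 4.68, 4.92 and 4.71 with flg22, so the groups overlapped (difference 0.08, limma adjusted p = 0.884). The defensin-like gene AT3G59930 differed by -0.26 without passing, with paired differences of -0.32, 0.45 and -0.90. Over the group 4 of 6 rose and 0 fell with a median of 2.54, beside 36.6% higher and a median of 0.14 over all probes. After median centring and after quantile normalization 3 rose and 1 fell, the one that fell being AT3G59930 (-0.78 and -0.97).

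Class III peroxidases are secreted enzymes that use hydrogen peroxide to oxidize wall phenolics and can also produce reactive oxygen. The 3 measured members went in opposite directions. AT5G64120, peroxidase 71, rose from 4.81, 4.17 and 5.22 to 8.85, 9.15 and 9.03, a change of 4.28 (SE 0.18, limma adjusted p = 1.48e-14). AT2G37130 fell, from 4.81, 5.58 and 5.61 to 4.19, 4.81 and 4.44, and although the groups touched at 4.81 it was lower in each set (change -0.85, SE 0.13, limma adjusted p = 1.35e-05). AT5G19890 rose by 0.81 (SE 0.32, limma adjusted p = 0.0422), with 4.67, 3.83 and 4.82 against 5.17, 5.06 and 5.53. This last call was lost on leaving out set 2, set 3, the second or the third flg22 array, or the first or the second mock array (change from 0.57 to 0.87, highest limma adjusted p = 0.225), without the block and after all 3 rescalings.

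**Figure D2:**
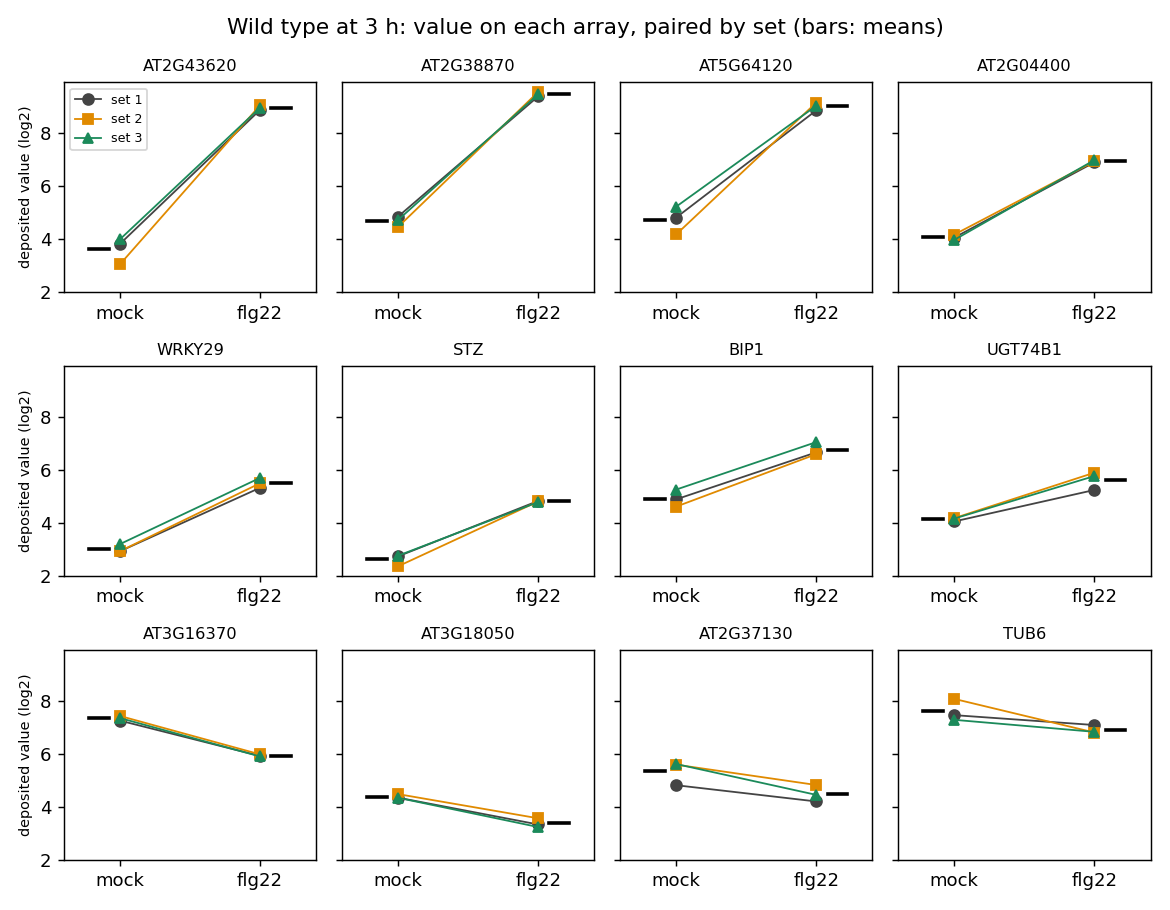
Deposited log2 value (y axis) on each mock and flg22 array of wild type at 3 h for 12 genes, with a line and marker for each of sets 1 to 3 and black bars at the group means. The group means of AT2G43620, AT2G38870 and AT5G64120 differ by 4.28 to 5.35 units, and those of the 4 genes in the bottom row are lower with flg22 by 0.70 to 1.41.

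Of 9 oxidoreductase genes from several families 6 rose and 0 fell with a median of 1.35, beside 36.6% higher and a median of 0.14 over all probes. AT1G26380, a FAD-linked oxidase of the berberine bridge enzyme family, read 2.20, 1.51 and 2.14 in mock and 6.07, 6.18 and 6.50 with flg22 (change 4.30, SE 0.16). AT2G34810, of the same enzyme family, differed by 0.13 without passing and was lower after median centring (-0.40, limma adjusted p = 0.023) and quantile normalization (-0.40, limma adjusted p = 0.0263). The 2-oxoglutarate-dependent dioxygenase gene AT2G36690 rose by 3.27 (SE 0.14), from 3.30, 3.01 and 3.35 to 6.32, 6.55 and 6.58. The 2 genes of FAD-dependent monooxygenases rose as well, AT4G38540 by 1.83 and CTF2B by 1.09.

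AT4G39830, an ascorbate oxidase-like gene, rose by 1.74 (SE 0.13) to 3.79, 3.78 and 3.78, from 2.19, 1.70 and 2.26. Its relative AT5G21105 differed by -0.21 without passing. AT1G64710, an alcohol dehydrogenase-like gene, rose by 1.35 with paired differences that had an SD of 0.03, while the dehydrogenase-like gene AT1G09500 differed by -0.18. After median centring and quantile normalization the 6 that rose still passed, and the 3 others were lower.

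Of the regulators, all 4 measured WRKY genes rose (median 2.24), beside 36.6% of all probes (median 0.14). They rose under each of the 3 rescalings as well. WRKY29 (AT4G23550), an activator placed downstream of the flagellin MAP kinase cascade, went from 2.92, 2.93 and 3.19 to 5.32, 5.49 and 5.70 (change 2.49, SE 0.15). WRKY22 (AT4G01250) rose by 2.26 (SE 0.18), with mock values of 2.61, 2.69 and 2.70 and flg22 values of 4.95, 4.84 and 4.99. WRKY53 (AT4G23810), a regulator of senescence and defence, rose by 2.21 (SE 0.14).

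WRKY6 (AT1G62300) was the least even of the family, with 3.43, 2.94 and 3.21 against 4.30, 4.84 and 4.47 and a change of 1.34 (SE 0.20). STZ, a zinc-finger repressor, rose by 2.19 (SE 0.15), from 2.73, 2.36 and 2.76 to 4.82, 4.81 and 4.78. It was 1 of 2 among the 8 other transcription regulators to rise (group median -0.09), beside 36.6% of all probes (median 0.14). The second was the DNA-binding protein gene AT5G28040, by 0.40, a call lost on leaving out set 1, set 2, the third flg22 array, or the first or the second mock array (highest limma adjusted p = 0.157) and turned to -0.13 and -0.20, not passing, after median centring and quantile normalization.

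Calcium sensors bind the calcium that enters after recognition. Of the 5 measured, 4 rose, with a median of 1.08, beside 36.6% higher and a median of 0.14 over all probes. CML42 (AT4G20780), a calmodulin-like protein, went from 3.49, 3.52 and 3.86 to 5.50, 5.65 and 5.58 (change 1.96, SE 0.13). The EF-hand genes AT2G41410 and AT4G27280 rose by 1.39 and 1.08. AT2G41090, a calmodulin-like gene, rose by 0.51 with overlapping groups, and its call was lost when set 1, set 2 or the second mock array was left out (highest limma adjusted p = 0.0904), while median centring and quantile normalization gave -0.02 and -0.21. AT5G39670 differed by 0.34 without passing.

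Among signalling and turnover genes, 2 of 4 RING-type proteins, which act as ubiquitin ligases, rose. AT2G42360 went from 2.16, 1.97 and 2.24 to 4.89, 4.88 and 4.83, a rise of 2.74 (SE 0.13), and AT1G08050 rose by 0.79, though not after median centring (0.26, limma adjusted p = 0.124). The counts of RING-type genes and of the kinases and proteases below, 2 of 4 each, are to be read against 36.6% higher over all probes. AT4G26400 and AT3G48070 differed by 0.10 and 0.07 without passing and were lower after median centring (-0.43 and -0.46) and quantile normalization (-0.43 and -0.40). Of 4 protein kinase genes AT3G09010 rose by 0.85 and AT2G23450 by 0.64, the latter not after median centring or quantile normalization, while AT1G11050 (0.13) and AT2G39110 (-0.02) did not pass. Aspartyl protease genes were divided in the same way. AT1G03220 rose by 1.44 with a wide SE of 0.33, AT3G51330 rose by 1.08 with flg22 values of 3.87, 3.99 and 3.94 over mock values of 2.77, 2.91 and 2.86, and AT2G39710 (0.27) and AT5G19110 (-0.19) did not pass.

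Of tryptophan, glucosinolate and sulphur metabolism 6 listed genes were measured, and 3 of them rose, beside 36.6% of all probes. AT2G04400, the synthase that closes the indole ring on the way to tryptophan (indole-3-glycerol phosphate synthase), read 4.05, 4.16 and 3.96 in mock and 6.89, 6.93 and 6.98 with flg22, without overlap (change 2.88, SE 0.14, limma adjusted p = 1.3e-13). UGT74B1, the glucosyltransferase that acts on thiohydroximates in glucosinolate synthesis, rose by 1.50 (SE 0.18), from 4.05, 4.17 and 4.16 to 5.24, 5.89 and 5.76. SIR, sulfite reductase of sulphur assimilation, rose by 0.56 (limma adjusted p = 0.0404). Leaving out set 2, set 3, the second or the third flg22 array, or the first or the second mock array ended this call (lowest change 0.37, highest limma adjusted p = 0.246). So did a fit without the block and each of the 3 rescalings, and the change turned to -0.12 with quantile normalization.

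The other 3 of this group of 6 did not pass, namely the ATP sulfurylase gene APS3 (0.31), AT2G25450 of aliphatic glucosinolate modification (0.05) and the glucosinolate transporter gene GTR1 (-0.22). With 3 of 6 higher, beside 36.6% of all probes, the group median was 0.44, and -0.09 and -0.17 after median centring and quantile normalization. Of the 7 glycosyltransferase genes 3 rose, beside 36.6% of all probes, and these 3 passed after each rescaling as well. These were UGT74B1, IAGLU, which conjugates the auxin indole-3-acetic acid to glucose, by 1.11 (2.83, 2.80 and 2.93 against 4.06, 3.91 and 3.93), and UGT76B1, which acts on isoleucic and salicylic acid, by 1.05. UGT85A2, UGT76E12, UGT84A3 and AT4G27570 differed by 0.16, 0.31, 0.10 and -0.05 without passing. UGT76E12 was uneven, with paired differences of 1.18, 0.13 and -0.38.

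Of 6 chaperone genes 4 rose and 0 fell with a median of 0.80, beside 36.6% higher and a median of 0.14 over all probes. BIP1, the HSP70 of the endoplasmic reticulum that helps fold secreted proteins, went from 4.88, 4.61 and 5.25 to 6.66, 6.59 and 7.05, a similar step in each set (change 1.85, SE 0.17). The cytosolic HSP70 gene AT3G09440 rose by 1.48 and Hsp70-2 by 0.93, the latter not after median centring (0.40, limma adjusted p = 0.0922). Genes of the HSP70 family are close in sequence, so a probe may read more than 1 of them. AT5G48570, a FKBP-type immunophilin, rose by 0.66, but not without the block (limma adjusted p = 0.0552) or after median centring. The small heat shock protein genes AT2G29500 (0.42) and AT2G19310 (0.37) did not pass. AT2G34250, a SecY-type protein translocation gene, rose by 0.72 from 4.86, 4.80 and 4.62 to 5.61, 5.38 and 5.46. Its change was 0.19 and -0.05, not passing, after median centring and quantile normalization.

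Of 11 membrane traffic genes 3 rose as deposited, beside 36.6% of all probes, and 0 after median centring or quantile normalization. Beside AT2G34250 these were ARA6, a Rab GTPase of endosomes, by 0.49, and AT1G47830, a clathrin adaptor small subunit gene, by 0.44. The call of ARA6 was lost on leaving out set 1, set 3, the second or the third flg22 array, or the first or the third mock array (highest limma adjusted p = 0.164). That of AT1G47830 was lost on leaving out set 1, the first flg22 array or the third mock array (lowest change 0.28, highest limma adjusted p = 0.146). Both turned below 0 without passing after median centring (-0.04 and -0.09) and quantile normalization (-0.03 and -0.25). Of 3 heavy-metal-associated domain genes 2 rose, beside the same 36.6%, AT2G36950 by 1.25 and AT5G52760 by 1.06, and AT5G60800 differed by -0.22.

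Other named genes that rose by at least 1 unit covered several functions. AT3G54150, a methyltransferase gene, went from 2.71, 2.65 and 2.53 to 4.78, 5.07 and 5.23 (change 2.40, SE 0.16). AT4G25900, of the aldose epimerase family, rose by 1.96 (SE 0.15), the pectin methylesterase gene ATPMEPCRB by 1.04 and GSTF3, a glutathione S-transferase, by 1.03. AT4G39670, of the glycolipid transfer protein family, rose by 1.39, and AT2G39980, of the BAHD acyltransferase family, by 1.01. AT2G18690, AT1G65500 and AT3G13950, for which no role is given here, rose by 1.65, 1.55 and 1.47. AT1G65500 had one of the wider spreads of paired differences (SD 0.44).

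Rises below 1 unit were seen in AT1G05340 (0.93), AT2G28400 (0.89), AT2G18680 (0.68), AT4G25030 (0.63) and the actin-binding gene AT1G27100 (0.57). They were also seen in AT4G24350 (0.77) and AT4G24340 (0.66) of the phosphorylase superfamily, the protein phosphatase 2C gene AT3G51370 (0.70) and AT4G24290, a MACPF-domain gene (0.62). Of these, AT1G05340 and AT2G28400 still passed after median centring. AT4G33540 (0.56) turned to -0.18 and AT1G27100 to -0.02 with quantile normalization, neither passing. AT2G32150, a hydrolase gene of the HAD type, rose by 0.47 and AT5G23340, a leucine-rich repeat gene, by 0.35. AT2G32150 lost its call on leaving out set 2, set 3, the first or the second flg22 array, or the second or the third mock array, and AT5G23340 on leaving out any set, the first or the third flg22 array, or the first or the third mock array (lowest change 0.31 and 0.27, highest limma adjusted p = 0.246 for each). Both turned below 0, not passing, after median centring (-0.06 and -0.18) and quantile normalization (-0.23 and -0.20).

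**Figure D3:**
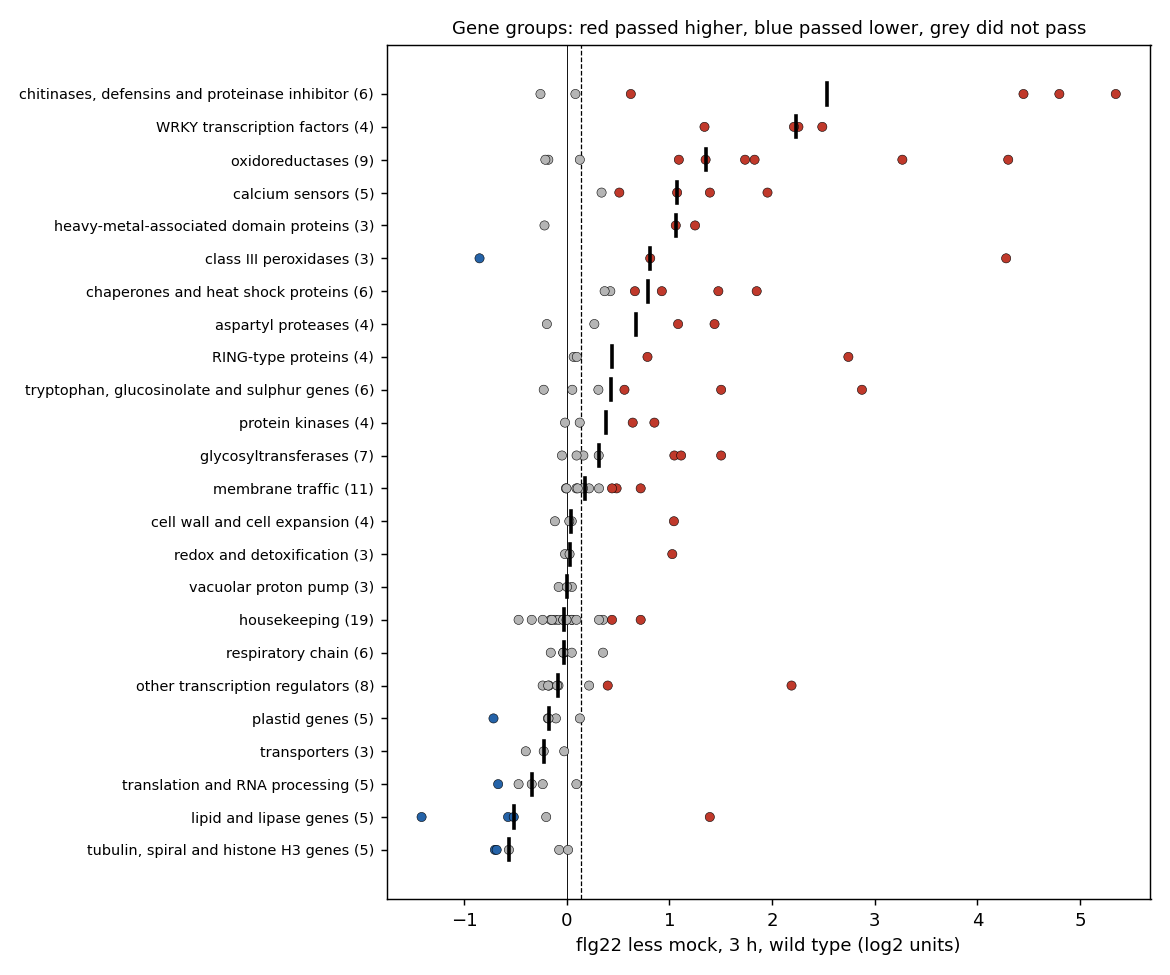
Change of each measured gene of 24 groups (flg22 less mock at 3 h in wild type, log2 units, x axis), with 1 point per gene, coloured by whether it passed, a black bar at the group median and the dashed line at the median of all probes (0.14). The 4 WRKY genes all lie to the right of 1, and the tubulin and histone group has its median at -0.56.

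The named genes that fell were 12, and 2 of them fell by at least 1 unit. AT3G16370, a GDSL-type lipase family gene, read 7.25, 7.42 and 7.34 in mock and 5.91, 5.97 and 5.89 with flg22, with little spread on either side (change -1.41, SE 0.17, limma adjusted p = 4.55e-07). AT3G18050, for which no role is given here, fell from 4.34, 4.47 and 4.33 to 3.32, 3.56 and 3.23 (change -1.01, SE 0.12). RAP, a chloroplast RNA-binding protein needed for ribosomal RNA maturation, fell by 0.71 from 3.52, 3.95 and 3.69 to 2.86, 3.08 and 3.08. It was the single one of 5 plastid genes to fall on the deposited scale, beside 7.99% lower over all probes. On that scale the light-harvesting gene LHCB4.3 differed by -0.10 without passing. After median centring and quantile normalization all 5 plastid genes were lower.

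Of 5 tubulin, spiral and histone H3 genes 2 fell and 0 rose, beside 7.99% lower over all probes, and SPR1 of microtubule organisation differed by 0.01 without passing. After median centring 5 of the 5 were lower and after quantile normalization 4. TUB6, a beta-tubulin, went from 7.45, 8.07 and 7.28 to 7.08, 6.80 and 6.82. The mock value of set 2 stood high, and without that array the change was -0.37 and did not pass (limma adjusted p = 0.158), against -0.70 (SE 0.22, limma adjusted p = 0.0119) with it. AT1G09200, a histone 3.1 gene, fell by 0.68 from 6.77, 6.35 and 6.48 to 5.89, 5.93 and 5.74, a call lost without set 3 (limma adjusted p = 0.0535). The second histone 3.1 gene, AT5G65360, differed by -0.56 without passing, with paired differences of -0.17, -1.28 and -0.23 in sets 1 to 3. AT4G40030, a histone 3.3 gene, differed by -0.07. Histone H3 genes are nearly identical in sequence, so a probe may read several.

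Of 5 lipid and lipase genes 3 fell and 1 rose with a median of -0.52, beside 7.99% lower and 36.6% higher over all probes. Those that fell were AT3G16370 above, AT1G54010 and AT1G67360, and AT4G39670 rose. The remaining falls are given gene by gene. AT1G54010, GDSL-like lipase 23, fell by 0.57 from 7.14, 6.81 and 6.81 to 6.47, 6.32 and 6.26. AT3G12390, a nascent polypeptide-associated complex gene, fell by 0.67, a call lost on leaving out set 2, set 3, the second or the third flg22 array, or the first mock array (smallest change -0.50, highest limma adjusted p = 0.154). AT1G67360, of the lipid droplet-associated family, fell by 0.52 with overlapping groups. Its call was lost on leaving out set 1, set 3, the second or the third flg22 array, or the first or the third mock array (smallest change -0.33, highest limma adjusted p = 0.226) and without the block (limma adjusted p = 0.139).

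COR47, a cold-induced dehydrin, is an example where the pairing mattered. Its mock values were 5.0, 5.79 and 5.39 and its flg22 values 4.66, 5.31 and 4.90, so the groups overlapped although each set fell by a similar step (paired SD 0.09). It fell by 0.44 with the set as a block (limma adjusted p = 0.00184) and did not pass without the block (limma adjusted p = 0.134) or without set 3 (limma adjusted p = 0.0592). CDI, a cadmium-induced gene, fell by 0.57 from 4.24, 4.09 and 4.16 to 3.57, 3.63 and 3.57. AT4G17470, a hydrolase gene of the thioesterase type, fell by 0.34 and did not pass with any 1 set left out (limma adjusted p from 0.0724 to 0.0862).

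Genes of basic cell functions mostly did not pass. Of 19 housekeeping genes 2 rose, AT2G34250 and AT1G47830 above, and 0 fell on the deposited scale, with a median of -0.03. Over all probes 36.6% were higher and 7.99% lower, so 0 falls among 19 genes says little. The translation elongation factor gene AT5G60390 differed by -0.34, the ribosomal protein gene AT2G37190 by -0.47, the respiratory subunit gene SDH1-1 by 0.35 and AT4G26410 by -0.11. After median centring 15 of the 19 were lower and after quantile normalization 14, so a statement that these genes did not move holds only for the deposited scale. The nitrate transporter family gene AT2G26690 (-0.40), the amino acid transporter gene AT4G38250 (-0.02) and AT-HF of histidine synthesis (-0.41) did not pass either, and each was lower after median centring and quantile normalization.

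Most of the probes with the largest changes have no name here, as is true of 395 of all 576 probes. Of the 15 probes that rose by at least 3 units 6 are named, and of the 12 that fell by at least 1 unit 2 are, beside 181 of all 576. Probe 160 went from 2.59, 1.80 and 2.64 to 7.42, 7.30 and 8.09 (change 5.26, SE 0.19), and probe 551 from 2.41, 2.25 and 2.63 to 6.93, 6.88 and 7.18 (change 4.57, SE 0.13). Probe 105 fell from 9.06, 9.67 and 8.94 to 7.01, 7.02 and 6.85 (change -2.26, SE 0.26), a larger fall than that of any named gene. Probe 306 fell by 1.96 (SE 0.32), from 8.38, 6.92 and 6.54 to 5.99, 5.03 and 4.94, and its set 1 was higher than the others with both treatments.

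The response at 3 h was then set against that of the same genotype at 30 min, which shares no array with it. At 30 min 127 probes were higher (22.0%) and 5 lower (0.868%). The probes higher at both times were 101, which is 47.9% of those higher at 3 h and 79.5% of those higher at 30 min. In the test of the difference itself, 104 probes responded more strongly at 3 h (18.1%) and 80 less strongly or downward (13.9%). Of the 211 probes that rose at 3 h, 109 had not passed at 30 min, and for 72 of these the difference between the times passed too. Another 29 rose at both times and more at 3 h, 33 rose at both times and less at 3 h, and for 39 that rose at both times the difference did not pass.

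Of the named genes, 16 rose at 3 h, did not pass at 30 min and differed between the times. They included AT2G04400 (0.10 at 30 min and 2.88 at 3 h), BIP1 (-0.07 and 1.85), UGT74B1 (-0.16 and 1.50) and AT3G09440 (-0.12 and 1.48). IAGLU (-0.23 and 1.11), UGT76B1 (0.09 and 1.05), GSTF3 (-0.18 and 1.03) and AT3G51330 (-0.07 and 1.08) belonged to it as well. A further 12 rose at both times and more at 3 h, among them AT2G43620 (1.48 and 5.35), AT2G38870 (0.89 and 4.80), AT4G01700 (1.65 and 4.45), AT5G64120 (1.61 and 4.28), AT1G26380 (2.26 and 4.30) and WRKY29 (0.78 and 2.49).

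The opposite order was seen in 8 named genes that rose at both times and less at 3 h. These included AT4G27280 (4.64 at 30 min and 1.08 at 3 h), STZ (4.73 and 2.19), AT5G52760 (3.43 and 1.06), AT4G39670 (3.73 and 1.39), WRKY53 (3.74 and 2.21) and WRKY22 (3.25 and 2.26). A group of 9 named genes had risen at 30 min and no longer passed at 3 h, with a difference between the times that passed. EXO, a cell expansion gene, read 8.07, 8.28 and 8.16 with flg22 at 30 min and 4.95, 5.16 and 4.80 at 3 h, where its mock values were 4.72, 4.91 and 5.13. At 3 h its groups overlapped (difference 0.05), while median centring and quantile normalization placed it lower (-0.48 and -0.61).

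The rest of these 9 were GRX480, AT4G26400, AT5G60800, AT5G39670, AT2G26190, AT2G18210, AT1G11050 and GTR1. GRX480, a glutaredoxin of salicylic acid signalling, went from a change of 0.72 at 30 min to -0.02 at 3 h, where its 3 h values were 2.64, 2.61 and 2.69 without and 2.78, 2.54 and 2.57 with the peptide. AT4G26400 went from 2.02 to 0.10, AT5G60800 from 1.72 to -0.22 and the calmodulin-binding family gene AT2G26190 from 1.71 to 0.20. CDI was the single named gene that rose at 30 min (1.09) and fell at 3 h (-0.57). Of the 12 named genes that fell at 3 h, 7 differed from their change at 30 min, where AT3G16370 had changed by -0.20, AT3G18050 by -0.20 and RAP by 0.05, none passing.

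**Figure D4:**
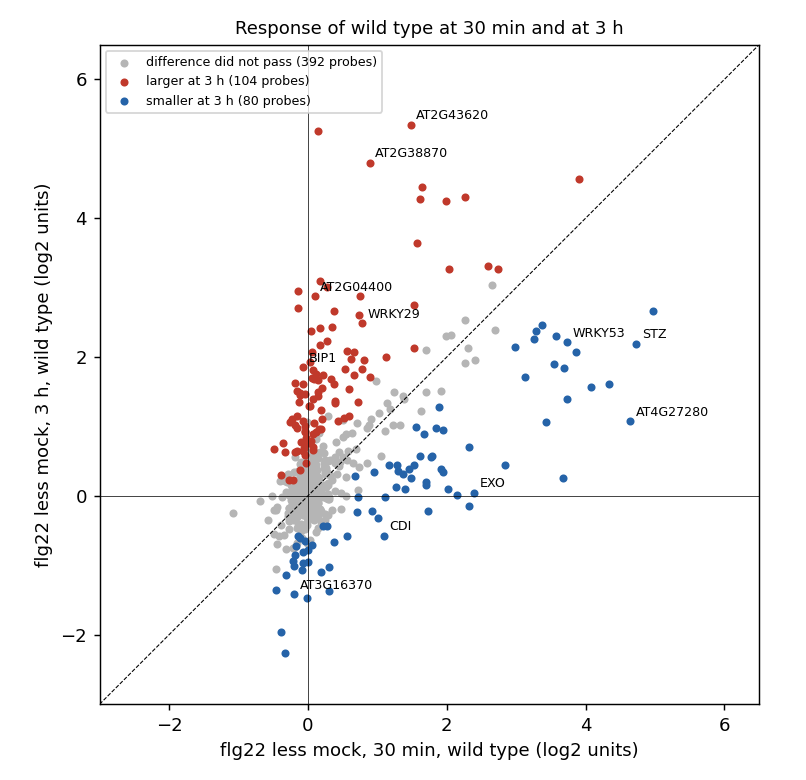
Change with flg22 in wild type at 30 min (x axis) and at 3 h (y axis), both in log2 units, with 1 point per probe, the dashed line marking equal changes and colours showing the test of the difference. The 104 probes with a larger response at 3 h lie above the line, AT2G43620 highest among them, and the 80 with a smaller response lie below it, with AT4G27280 and STZ far to the right.

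In mpk11 at 3 h, 220 probes rose (38.2%) and 56 fell (9.72%). Those higher in both genotypes were 194, which is 91.9% of the wild-type and 88.2% of the mpk11 list, and those lower in both were 39, which is 84.8% and 69.6%. Calls of opposite direction were 0. The test of the difference between the responses passed for 0 of 576 probes in limma, and every adjusted p was at least 0.984. An unadjusted p under 0.05 was seen for 16 of the 576. That is a smaller share than the 0.05 that would on average fall under this cutoff if no probe differed. The median half-width of the 95% interval of the difference was 0.460, without adjustment for the number of probes. To pass after adjustment a difference had to be larger than its half-width, so 0 calls do not show that the responses were equal.

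Listed next are the named genes with the smallest p-values for that difference, mpk11 less wild type. They were picked by p, so their differences lie at the extreme end and do not show its usual size. That their 95% intervals, not adjusted for the number of probes, leave out 0 follows largely from this choice. AT2G43620 changed by 6.07 in mpk11 against 5.35 (difference 0.72, 95% interval 0.14 to 1.29) and AT1G26380 by 4.77 against 4.30 (difference 0.47, interval 0.01 to 0.94). AT4G39830 changed by 2.14 against 1.74 (difference 0.41, interval 0.03 to 0.79), AT3G48070 by -0.42 against 0.07 (difference -0.48, interval -0.88 to -0.09) and AT2G32150 by -0.12 against 0.47 (difference -0.59, interval -1.13 to -0.06). None passed after adjustment.

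**Figure D5:**
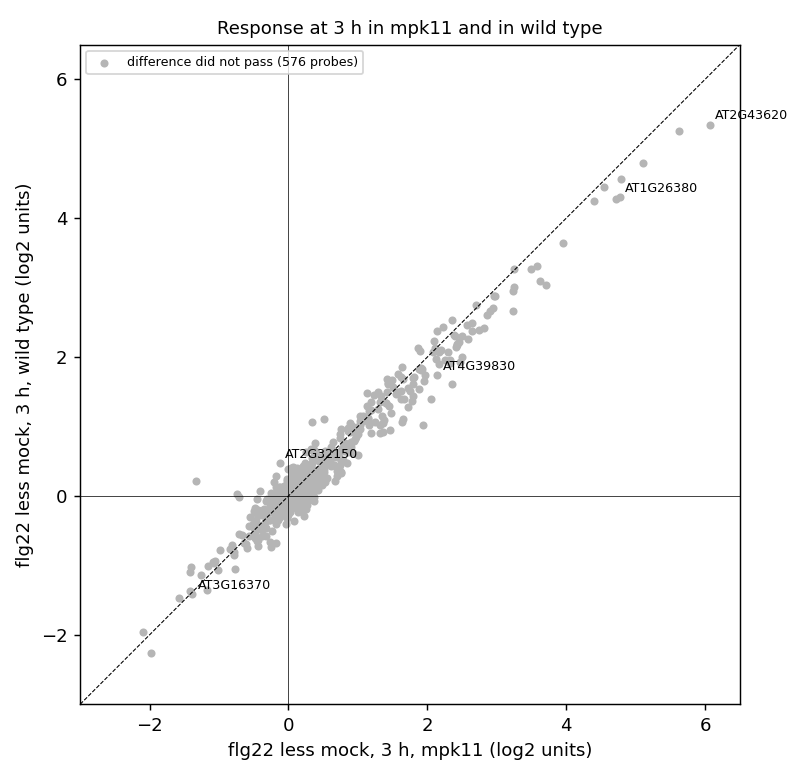
Change with flg22 at 3 h in mpk11 (x axis) and in wild type (y axis), both in log2 units, with 1 point per probe and the dashed line marking equal changes. The points lie along the line, with AT2G43620 at its upper right end (6.07 in mpk11 and 5.35 in wild type), and the difference passed for 0 of the 576 probes.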

How the data were processed

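Leaf RNA labelled with the single dye Alexa555 was hybridised to spotted arrays, and spots of poor quality were removed with the help of a Cy5-labelled oligonucleotide, per the labels. The deposited log2 values (the base is assumed from their range) had 0 missing entries and no 2 identical arrays, and how the spots were scanned, background-corrected and scaled is not given in the sources used here. Values recurred exactly within an array (338 to 383 distinct values on the 6 arrays), for which no cause is given. The number of arrays limits the precision.

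All 24 arrays entered 1 limma 3.58.1 model in R 4.3.3 with 8 group means and the set number as a fixed replicate block (14 residual and 6.45 prior degrees of freedom), with Benjamini-Hochberg adjustment over all 576 probes and no filter. Same-numbered mock and flg22 arrays at 3 h deviated together from their group means (correlations 0.487, 0.433 and 0.382). Arrays of the same set in different groups did so in general (median 0.336, from -0.087 to 0.714). The numbers thus mark something shared by a set, and that a mock and a flg22 sample were matched within it was not tested. Of the named genes 180 matched RefSeq TAIR10.1 by gene identifier and 1 stayed under the name in the probe table. The probes come with no genome build, so positions were not used here. Roles of genes are background knowledge. Named were the 20 genes that rose and fell most among those that passed in the same direction in all sets, list members, the genes with the largest differences between the times or smallest p between the genotypes, 2 unnamed probes each way, and the 5 genes most uneven over sets. The other genes that passed, and a few members of no list such as AT2G26190, were named after their values were seen. The comparison, lists and tests were chosen with earlier results of these data known, and the lists were assembled after the probe names were known. In simulations of this comparison with 100 of 576 probes changed, 62.2% of changes of 0.5, 96.5% of 1 and 99.8% of 2 log2 units were recovered. In the data themselves more probes than these 100 were called, 211 higher and 46 lower. How the recovered shares depend on the scaling of the arrays was not tested. Alternatives to the main fit were other scalings, blocks, priors, a filter on dim probes and left-out arrays.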

Additional observations from a re-analysis of the deposited data

Results flagged for a closer look

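The wild-type response to flg22 differed between 3 h and 30 min (limma, difference of the responses, adjusted p below 0.05) for the following probes among those named. Values are the response at 3 h less that at 30 min in log2 units. It was larger at 3 h for probe 160 (5.12) and probe 551 (0.66), for the defence genes AT2G38870 (3.91), AT2G43620 (3.87), AT4G01700 (2.80) and AT5G64120 (2.67), and for the oxidoreductase genes AT1G26380 (2.04), AT4G38540 (1.29), AT4G39830 (1.07), AT1G64710 (0.63) and AT2G36690 (0.53). The same held for AT2G04400 (2.78), UGT74B1 (1.66), IAGLU (1.34) and UGT76B1 (0.96), and for the chaperone genes BIP1 (1.92), AT3G09440 (1.60) and Hsp70-2 (0.81). WRKY29 (1.71), AT2G42360 (1.22), AT1G08050 (0.75), AT3G51370 (0.62), AT3G51330 (1.15), GSTF3 (1.21) and AT4G25900 (1.16) followed, with AT3G13950 (1.50), AT4G24350 (1.12), AT4G24340 (0.59), AT2G39980 (1.04) and AT1G65500 (0.95).

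It was smaller at 3 h, or lower, for the calcium-linked genes AT4G27280 (-3.57), AT5G39670 (-1.61) and AT2G26190 (-1.51), for STZ (-2.54), WRKY53 (-1.52) and WRKY22 (-0.997), and for AT5G52760 (-2.37), AT5G60800 (-1.94), EXO (-2.35) and AT4G39670 (-2.33). AT4G26400 (-1.92), AT1G11050 (-1.14), AT2G18210 (-1.30), GTR1 (-1.15), AT1G27100 (-1.05), AT2G28400 (-0.78) and GRX480 (-0.73) belonged here too. Among genes that fell at 3 h these were CDI (-1.67), AT3G16370 (-1.21), AT3G12390 (-1.04), AT3G18050 (-0.81), RAP (-0.77), AT2G37130 (-0.66) and COR47 (-0.65), with probe 105 (-1.94) and probe 306 (-1.57). For the 10 named genes with the largest difference in each direction, the call held under every alternative tried.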

How the results depend on the processing

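The numbers of probes that rose or fell at 3 h depended mainly on the scaling of the arrays. Median centring gave 132 higher, 296 lower, 76 higher by at least 1 unit and 40 lower by at least 1 unit, and quantile normalization 140, 211, 77 and 42, against 211, 46, 122 and 12 as deposited. Without the replicate block 184 rose and 37 fell, and with the set as a random replicate block (correlation 0.24) 206 and 45. With only the 6 compared arrays 223 rose and 56 fell with the replicate block and 199 and 44 without it. In the former fit the limma adjusted p was larger for AT2G43620 and AT4G01700, as given above. It was smaller for AT3G12390 (0.003 against 0.0164 in the main fit). Among the 432 probes left by a filter on dim ones 189 rose and 45 fell. Leaving out a set or array gave from 178 to 199 higher and from 31 to 51 lower. The response was larger at 3 h than at 30 min for 81 to 108 probes and smaller for 58 to 106 over all alternatives, and the genotype difference passed for 0 probes under each.

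The turned genes listed here passed either as deposited or after the rescaling. Others that passed on neither scale also turned and are not listed, such as APS3 (0.31 as deposited, -0.22 after median centring, -0.27 with quantile normalization). After median centring ARA6 (-0.043), AT1G47830 (-0.088), AT2G32150 (-0.059), AT2G41090 (-0.0165), AT5G23340 (-0.18) and AT5G28040 (-0.13) turned, none passing there. Not passing as deposited but lower there were AT1G11050 (-0.40), AT2G18210 (-0.43), AT2G25450 (-0.47), AT2G34810 (-0.40), AT3G48070 (-0.46), AT4G26400 (-0.43), EXO (-0.48) and UGT84A3 (-0.43). With quantile normalization ARA6 (-0.035), AT1G27100 (-0.022), AT1G47830 (-0.25), AT2G32150 (-0.23), AT2G34250 (-0.054), AT2G41090 (-0.21), AT4G33540 (-0.18), AT5G23340 (-0.20), AT5G28040 (-0.20) and SIR (-0.12) turned without passing, and AT2G34810 (-0.40), AT3G48070 (-0.40), AT4G26400 (-0.43), EXO (-0.61) and SDH1-1 (-0.44) were lower. Median centring lowers every change by the same amount, and quantile normalization moves them by unequal amounts. Which scaling is closer to the true levels was not tested. After median centring 16 further genes, and with quantile normalization 8, kept their direction and no longer passed.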
